A study of Mus musculus with 6 samples.

Results

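The cathepsins are the proteases of lysosomes and endosomes. The group described here holds the 10 genes Ctsa, Ctsb, Ctsc, Ctsd, Ctse, Ctsh, Ctsk, Ctsl, Ctss and Ctsz, found by their symbols in a table of 55487 mouse genes. Their transcripts were compared between mouse dendritic cells raised from bone marrow (BMDC) and labelled as treated with NanoCa, the calcium-bearing lipid nanoparticle of the study's title (100 μM, per the labels' protocols), and Mock BMDC labelled as untreated. The cells were kept in DMEM with 10% serum. Cytokines used to raise them, and the time of exposure, do not appear in the labels. All samples carry the labels of female mice aged 4 to 8 weeks and of 1 shared batch date, and no genetic change is given for either group. The protocol with the particle also stands on the Mock samples, and their descriptions name a column that contains both words, so that Mock cells had no particle rests on the treatment label alone. Of the 3 columns per group, that of replicate 3 was a scaled mean of the columns of replicates 1 and 2 in every gene with a value, by a factor of 1.0011 in NanoCa and of 1.001876 in Mock. All values below therefore come from 2 libraries per group, apart from an alternative fit that added the columns of replicate 3. The labels do not say whether replicates are separate animals or cultures, so the p-values speak for the spread among these 4 libraries alone, and that spread may be technical.

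Cathepsins are made as inactive precursors, tagged with mannose 6-phosphate in the Golgi, carried to endosomes and activated there by acid and by other proteases. In dendritic cells they cut internalised proteins into peptides and degrade the invariant chain that blocks the groove of MHC class II molecules. Cystatins and stefins inhibit the cysteine cathepsins. Most family members are cysteine proteases, while Ctsd and Ctse are aspartic proteases and Ctsa is a serine carboxypeptidase.

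FPKM values (reads set against gene length and library total) are per length, so genes can be set side by side as far as the length used for each holds. Totals were 22793565 to 23991472 reads in the NanoCa libraries and 26975437 to 31131990 reads in the Mock libraries. Genes with a mean of at least 1 FPKM over the 4 libraries (11116 genes) were tested with limma on log2(FPKM + 1), and every fold change below is NanoCa minus Mock on that scale. A gene was called at an adjusted p under 0.05, adjusted by Benjamini-Hochberg over the 11116 genes. Sex-linked transcripts went against the female label and differed between the groups. Xist had 14413 and 13639 reads in NanoCa and 1 read in each Mock library, and 4 of 4 Y-linked genes listed were lower in NanoCa, at 29.4% (Kdm5d), 33.6% (Eif2s3y), 39% (Uty) and 40.4% (Ddx3y) of Mock. Y-linked reads were present in both groups: Ddx3y had 14.2 and 12.9 FPKM in NanoCa and 34.5 and 32.5 FPKM in Mock, and Eif2s3y had 11.9 and 11.5 FPKM in NanoCa and 35.1 and 34.6 FPKM in Mock. This difference goes with the treatment label in all 4 libraries. Its part in the values below was not tested and cannot be told apart from that of the treatment.

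All 10 cathepsins passed the filter on low values, each in both groups. Of them, 8 rose in NanoCa (Ctsl, Ctsb, Ctsz, Ctss, Ctsk, Ctsd, Ctsa and Ctsc) and 2 fell (Ctse and Ctsh). Over all genes tested 21.7% were called higher in NanoCa, 49.7% lower and 71.3% in either direction. The median log2 fold change was 0.32 over the cathepsins and -0.17 over all genes tested, and 8 of the 10 cathepsins were above that of all genes. Median-of-ratios scaling, which moves the median of all genes by 0.17 to 0, called 66.0% of all genes (33.4% higher, 32.6% lower), and again 8 cathepsins higher and 2 lower. With quantile normalization, which called 66.1% of all genes (29.7% higher, 36.3% lower), 4 cathepsins were higher and 2 lower. The 2 NanoCa values did not overlap the 2 Mock values for any of the 10 members, a separation that 86.3% of all genes tested also showed.

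**Figure D1:**
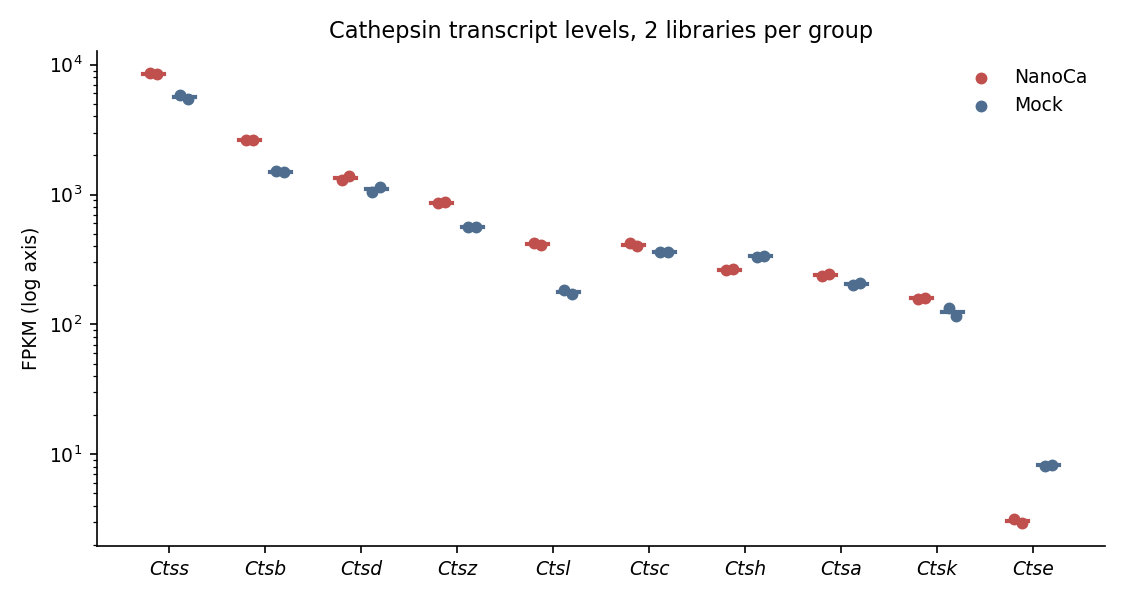
FPKM on a log axis for the 10 cathepsins, with 1 point per library and a bar at the mean of the 2 libraries of a group, NanoCa to the left of Mock. Ctss is the highest in both groups (8507.1 and 5677.5 FPKM on average), Ctse the lowest (3.05 and 8.22 FPKM), and the points of the groups are apart in every gene.

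Promoter sequences are shown for the members whose windows held a motif bound by regulators of lysosomal or interferon-induced genes. RefSeq windows (GRCm38.p6) were found for 7 of the 10 cathepsins, 8 windows in all since Ctsa has a pair of them, and the 250 bases before each start were searched on both strands. The sequence CACGTG is the core of the element bound by TFEB and TFE3, the transcription factors of lysosomal genes, and it stood in 3 of the 8 windows (1 each of Ctsa, Ctsd and Ctsl) and in 6.02% of all 32851 windows. Each is given 5′ to 3′ with up to 10 bases on either side and CACGTG in capitals. The stretch of Ctsa, and that of Ctsd nearer the start, lay wholly in annotated exons (26 of 26 bases each), and that of Ctsl in part (13 of 26), so these bases are not all outside transcribed sequence. Ctsd held the motif at 2 places, 245 to 240 and 98 to 93 bases before the start, Ctsl at 236 to 231 bases and Ctsa at 12 to 7 bases.
Ctsd, upstream place, chr7:142388057-142388077, minus strand: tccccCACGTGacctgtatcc
Ctsd, place nearer the start, chr7:142387910-142387935, minus strand: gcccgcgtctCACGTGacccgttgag
Ctsl, chr13:64370741-64370766, minus strand: cgttagaagcCACGTGctgatctaaa
Ctsa, chr2:164833751-164833776, plus strand: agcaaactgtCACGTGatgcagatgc

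The core of the interferon-stimulated response element (GAAA, any 2 bases, GAAA) stood in the window of Ctss, 21 to 12 bases before the start, and in 2.98% of all windows. The 250 bases are shown because Ctss was the highest member by FPKM, with the match in capitals.
Ctss, chr3:95526536-95526785, plus strand: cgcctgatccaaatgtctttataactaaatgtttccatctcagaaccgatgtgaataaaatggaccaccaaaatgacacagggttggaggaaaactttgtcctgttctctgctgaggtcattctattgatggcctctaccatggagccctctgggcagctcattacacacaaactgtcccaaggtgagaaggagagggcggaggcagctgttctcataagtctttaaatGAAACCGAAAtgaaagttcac
A match is a run of letters and not evidence of binding. In all, 8 motifs were searched. The letters TTCNNNGAA were in the window of Ctsc (7.02% of all windows), GGAAGT in those of Ctsa and Ctsc (19.7%), GAGGAA in those of Ctsk, Ctss and Ctsc (23.3%) and TATAAA in that of Ctss (12.4%). The run GGGCGG was in those of Ctsz, Ctss, Ctsc and Ctsd (32.7%), and TGACTCA in none of the 8 (4.46%). The matches shown in capitals overlapped no other motif searched.

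Among the cysteine endopeptidases, all 4 rose, where 21.7% of all genes tested were called higher. Ctsl (ENSMUSG00000021477), a lysosomal endopeptidase that degrades the invariant chain in the mouse thymic cortex, had 427 and 411 FPKM in the NanoCa libraries, against 183 and 172 FPKM in the Mock libraries. Both NanoCa libraries were far above both Mock libraries, and the spread within each group was small beside the difference. The ratio of the means was 2.36 (log2 fold change 1.23, SE 0.046, adjusted p = 5.02e-06), the largest rise among the 10 members, ranked 394 from the top of all genes tested. Its direction and its call were the same under all 12 alternatives (log2 fold change 1.14 to 1.42). In annotated exons Ctsl overlaps Gm47123 on the opposite strand, which had 4 and 0 reads in the NanoCa libraries, against 1 and 0 in the Mock libraries.

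Ctsb (ENSMUSG00000021939), an abundant endopeptidase that also trims dipeptides from the ends of proteins, had 2606 and 2616.4 FPKM in NanoCa, against 1521 and 1477.5 FPKM in Mock. The NanoCa libraries (SD 7.36 FPKM, n = 2) were well above both Mock libraries (SD 30.7 FPKM, n = 2). The ratio of the means was 1.74 (log2 fold change 0.80, SE 0.048, adjusted p = 2.87e-05), with a range of 0.78 to 1.0 over the 12 alternatives. Fdft1, whose exons overlap the end of Ctsb on the opposite strand, was read 786 and 755 times in NanoCa, against 1790 and 1658 times in Mock. Ctsb itself had 296545 and 282864 reads in the NanoCa libraries and 224589 and 189043 in the Mock libraries. The pair shares 774 exonic bases, and the part of Fdft1 in the value of Ctsb was not tested.

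Ctss (ENSMUSG00000038642), the endopeptidase that completes the breakdown of the invariant chain in dendritic cells and B cells, had 8580.6 and 8433.7 FPKM in NanoCa and 5874.7 and 5480.3 FPKM in Mock. By FPKM it was the gene at rank 2 and rank 4 of its library in NanoCa and at rank 6 and rank 8 in Mock. Both NanoCa libraries were above both Mock libraries, and the 2 Mock libraries were further from each other than those of NanoCa. The ratio of the means was 1.5 (log2 fold change 0.58, SE 0.066, adjusted p = 0.0004). Without the filter on low values the call was lost at the same fold change (adjusted p = 0.0635; range over the 12 alternatives 5.34e-09 to 0.0635).

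Ctsk (ENSMUSG00000028111), the collagen-degrading protease of osteoclasts, stands near Ctss on chromosome 3, with 1 annotated lncRNA between them in RefSeq. It had 158 and 159 FPKM in NanoCa, against 134 and 116 FPKM in Mock. The NanoCa libraries were nearly equal, and Mock replicate 1 stood nearer to them than Mock replicate 2. Ctsk rose by 0.35 on the log2 scale (SE 0.069, adjusted p = 0.0044), by 0.45 without Mock replicate 1 and by 0.25 without Mock replicate 2. With quantile normalization Ctsk was not called (0.18, adjusted p = 0.0679). The FPKM ratio of Ctsk to Ctss was 0.0185 and 0.0189 in NanoCa and 0.0227 and 0.0211 in Mock, so the rise of Ctss was the larger of the pair in these libraries, though the difference between the rises was not tested.

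**Figure D2:**
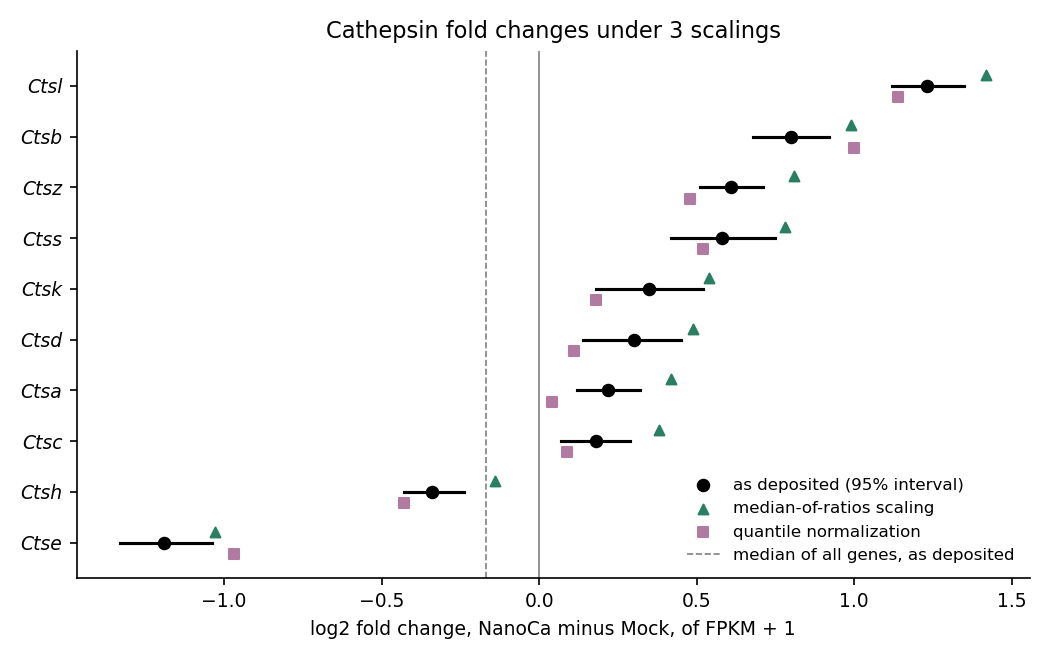
Log2 fold changes (NanoCa minus Mock, of FPKM + 1) of the 10 cathepsins, ordered by size, with points and 95% limma intervals for the deposited scale, triangles for median-of-ratios scaling and squares for quantile normalization. Every member stays on its side of 0 under these 3 scalings, and Ctsa, Ctsc, Ctsd and Ctsk come close to 0 (0.04 to 0.18) with quantile normalization.

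The cysteine exopeptidases were divided, with 2 of 3 higher and 1 lower, beside 21.7% higher and 49.7% lower over all genes tested. Ctsz (ENSMUSG00000016256), a carboxypeptidase also known as cathepsin X, had 854 and 869 FPKM in NanoCa, against 567 and 558 FPKM in Mock. The spread within each group was small beside the gap between the groups. The ratio of the means was 1.53 (log2 fold change 0.61, SE 0.041, adjusted p = 4.36e-05), with 0.48 to 0.81 over the alternatives.

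Ctsc (ENSMUSG00000030560), dipeptidyl peptidase I, which activates the serine proteases of granules, had 423 and 398 FPKM in NanoCa and 361 and 362 FPKM in Mock. Its NanoCa libraries differed from each other by more than the Mock libraries, and the lower of them was still above Mock. The rise was the smallest among the members called higher (log2 fold change 0.18, SE 0.045, adjusted p = 0.0107). It was not called without NanoCa replicate 1 (0.14, adjusted p = 0.0502), which leaves 7 cathepsins called higher, or with quantile normalization (0.09, adjusted p = 0.146).

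Ctsh (ENSMUSG00000032359), an aminopeptidase, had 261 and 268 FPKM in NanoCa, against 330 and 338 FPKM in Mock. Both NanoCa libraries were lower. Their mean stood at 79.2% of the Mock mean, a log2 fold change of -0.34 (SE 0.039, adjusted p = 0.000458). The call held under all 12 alternatives, and the fold change was -0.14 with median-of-ratios scaling (adjusted p = 0.0198; highest of the 12) and -0.43 with quantile normalization. Relative to the median of all genes the fold change of Ctsh was -0.16.

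The aspartic endopeptidases moved in opposite directions. Ctsd (ENSMUSG00000007891), a main protease of lysosomes, had 1297.3 and 1395.1 FPKM in NanoCa and 1050.2 and 1142.5 FPKM in Mock. In both groups replicate 2 was the higher library, and the lower NanoCa library was still above the higher Mock library. In annotated exons Ctsd shares 808 bases with Gm49369 on the same strand, which had no read in any library. Ctsd rose by 0.30 on the log2 scale (SE 0.063, adjusted p = 0.00614), and the call was lost without the filter on low values (adjusted p = 0.0583) and with quantile normalization (0.11, adjusted p = 0.166; lowest of the alternatives 4.31e-05).

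Ctse (ENSMUSG00000004552), an endosomal protease of immune and gastric cells, was the only member under 100 FPKM. It had 3.16 and 2.95 FPKM in NanoCa (161 and 143 reads), against 8.10 and 8.33 FPKM in Mock (536 and 478 reads). The libraries of a group were close to each other and the NanoCa libraries were far lower, with a mean at 37.2% of Mock. On the log2(FPKM + 1) scale the fold change was -1.19 (SE 0.059, adjusted p = 1.43e-05), ranked 433 from the bottom of all genes tested. The added 1 shrinks a change at so low a level, and with 0.1 added instead the fold change was -1.4. It ran from -1.42 with limma-voom on the reads to -0.97 with quantile normalization and was called under all 12 alternatives.

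Ctsa (ENSMUSG00000017760), the serine carboxypeptidase that holds beta-galactosidase and neuraminidase in a stable complex, had 234 and 243 FPKM in NanoCa and 201 and 208 FPKM in Mock. All values lay in a narrow range, with both NanoCa libraries above both Mock libraries. Ctsa rose by 0.22 on the log2 scale (SE 0.040, adjusted p = 0.00314), and with quantile normalization its fold change was 0.04 and not called (adjusted p = 0.356). In annotated exons Ctsa shares 495 bases with Pltp on the opposite strand. Whether reads were counted by strand is not given in the sources used here. Pltp, a phospholipid transfer protein, had 5612 and 5748 reads in the NanoCa libraries, against 2165 and 2062 in the Mock libraries. Ctsa had 20511 and 20211 reads in NanoCa, against 22848 and 20429 in Mock. Unless reads were counted by strand, those of the pair cannot be told apart where they overlap. The part of Pltp in the value of Ctsa was not tested.

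**Figure D3:**
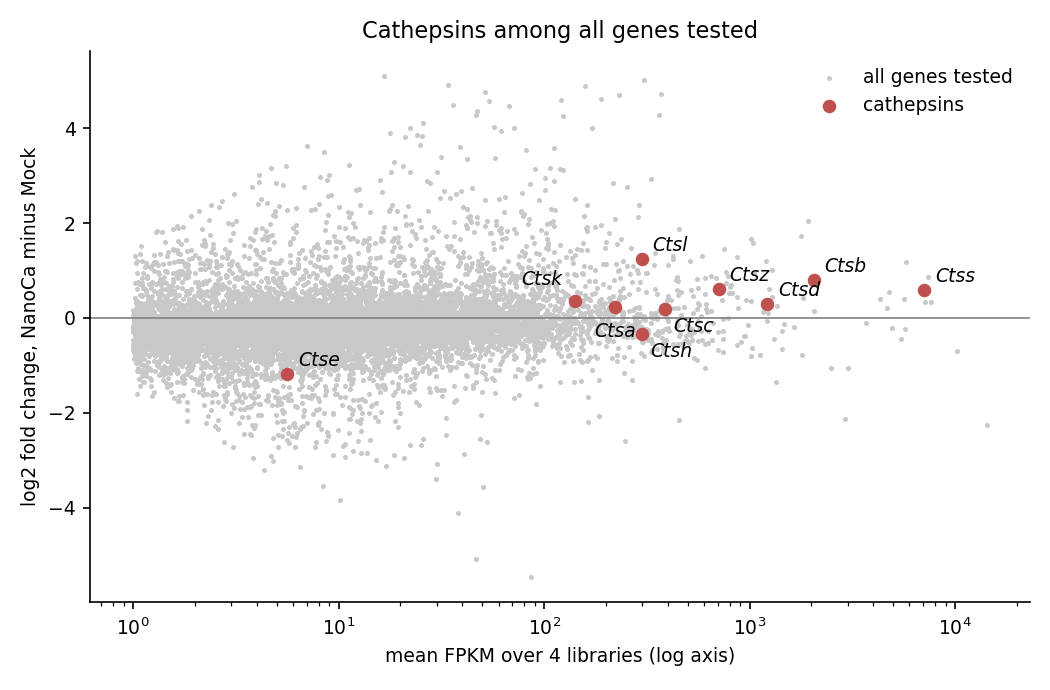
Log2 fold change (NanoCa minus Mock) against the mean FPKM over the 4 libraries on a log axis, for the 11116 genes tested (grey) and the 10 cathepsins (red). The cathepsins other than Ctse sit at the high end of expression with changes between -0.34 (Ctsh) and 1.23 (Ctsl), and Ctse sits low at -1.19.

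The order of levels within the family was the same in both groups for the first 4 places, Ctss, Ctsb, Ctsd and Ctsz. In NanoCa they were followed by Ctsl, Ctsc, Ctsh, Ctsa, Ctsk and Ctse, and in Mock by Ctsc, Ctsh, Ctsa, Ctsl, Ctsk and Ctse. Ctsl was at place 5 in NanoCa and place 8 in Mock. Its NanoCa values overlapped those of Ctsc, so these neighbours were not separated by the spread, and no other neighbours overlapped in either group. The FPKM ratio of Ctsh to Ctsl was 0.611 and 0.653 in NanoCa and 1.80 and 1.96 in Mock. By FPKM the order of these genes was thus turned in NanoCa, while by reads Ctsl was above Ctsh in every library. The lengths behind the FPKM values were unequal (6168 bases for Ctsl, 1617 for Ctsh, 1355 for Ctss), and the order within the family depends on them. By reads, Ctsb (296545 and 282864) was above Ctss (278941 and 260477) in NanoCa and below it in Mock.

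The 10 cathepsins summed to 14844 and 14797 FPKM in NanoCa, against 10230.7 and 9861.9 FPKM in Mock. The NanoCa sums were nearly equal and both far above Mock, with a ratio of the means of 1.48, or 1.69 with median-of-ratios scaling. Without Ctss the ratio was 1.45. In reads, the family held 3.32% of each NanoCa library and 2.17% and 2.11% of the Mock libraries. The make-up of the sum changed little at the top: Ctss was 57.8% and 57.0% of it in NanoCa and 57.4% and 55.6% in Mock. Ctsb made up 17.6% and 17.7% in NanoCa and 14.9% and 15% in Mock. Ctsl held 2.87% and 2.78% in NanoCa against 1.79% and 1.75% in Mock, and Ctsh 1.75% and 1.81% in NanoCa against 3.23% and 3.42% in Mock. These shares of FPKM also depend on the length used for each gene. The sum carries no test, since the members were chosen with earlier results of these data known.

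**Figure D4:**
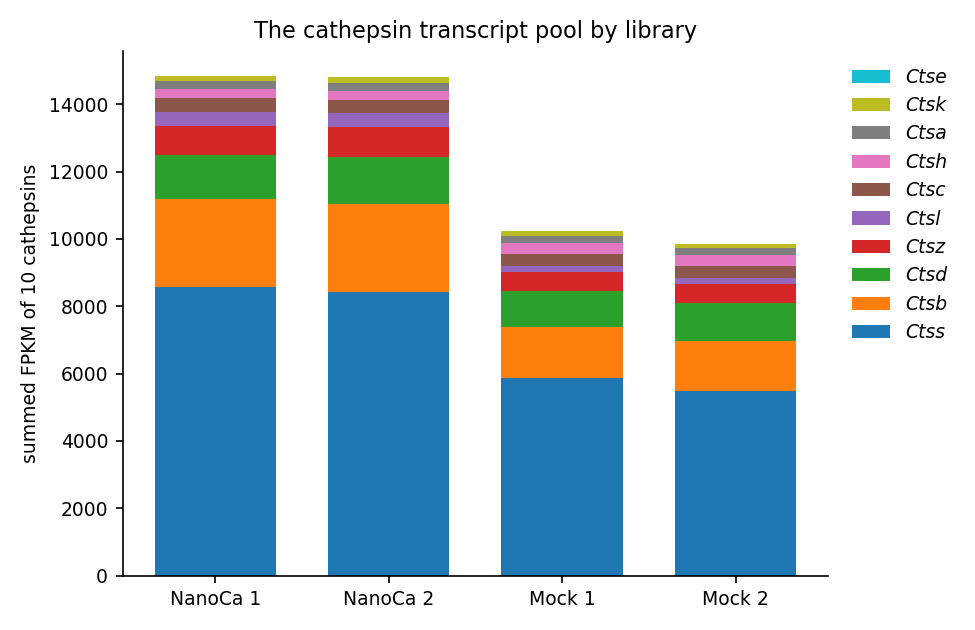
Stacked FPKM of the 10 cathepsins in each library, the NanoCa libraries left of the Mock libraries. The NanoCa bars reach 14844 and 14797 FPKM and the Mock bars 10230.7 and 9861.9, and Ctss fills 55.6% to 57.8% of every bar.

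Genes that deliver and activate the cathepsins moved both ways, with 5 of 12 higher, 3 lower and 4 not called. Over all genes tested 21.7% were higher and 49.7% lower. Lgmn, the asparaginyl endopeptidase that matures several cathepsins and opens invariant chain breakdown, had 577 and 611 FPKM in NanoCa, against 252 FPKM in each Mock library. Both NanoCa libraries were far above Mock, and the log2 fold change of 1.23 (SE 0.044, adjusted p = 4.01e-06) was as large as that of Ctsl. Gnptg, a subunit of the transferase that starts the mannose 6-phosphate tag, was low and rose (7.31 ± 0.587 FPKM in NanoCa and 4.87 ± 0.179 in Mock, SD, n = 2 each; log2 fold change 0.50). Sort1, which encodes sortilin, a receptor that sorts lysosomal proteins without that tag, had 11.9 and 12.1 FPKM in NanoCa, against 54.2 and 55.8 FPKM in Mock. Its NanoCa mean stood at 21.9% of the Mock mean. On the log2(FPKM + 1) scale the fold change was -2.10 (SE 0.040, adjusted p = 8.98e-07), and the sorting adaptor Gga2 fell too (-0.45). With median-of-ratios scaling 7 genes of the list were higher and 2 lower. The median of the list was 0.05, against -0.17 for all genes tested, and 9 of the 12 genes were above the latter.

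Of 17 listed subunits of the V-ATPase, the proton pump that acidifies lysosomes, 11 were higher, 4 lower and 2 not called, with a median of 0.21. Among all genes tested 21.7% were higher and 49.7% lower, with a median of -0.17. Quantile normalization gave 6 higher and 4 lower subunits, and median-of-ratios scaling gave 13 higher and 3 lower. Tcirg1, a membrane-domain subunit, had 203 and 217 FPKM in NanoCa and 120 and 125 FPKM in Mock (log2 fold change 0.77, adjusted p = 3.05e-05). Atp6v1h, of the cytosolic domain, rose (0.46), and the membrane-domain subunits Atp6v0a1 (-0.42) and Atp6v0d1 (-0.33) fell. On the deposited scale, higher and lower subunits both occurred in the membrane domain and in the cytosolic domain.

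Among the 4 listed transcription factors of the lysosomal gene network, 1 rose, 2 fell and 1 was not called. This count stands beside 21.7% higher and 49.7% lower over all genes tested. Tfe3 had 38.0 and 38.5 FPKM in NanoCa, against 30.5 and 29.7 FPKM in Mock (log2 fold change 0.33, adjusted p = 0.000433). Tfeb was low, with 7.87 and 8.82 FPKM in NanoCa and 11 and 11.9 FPKM in Mock (-0.42, adjusted p = 0.00222). Tfec, a relative found mainly in macrophages, fell further, to 30.8 and 29.4 FPKM in NanoCa, against 74.8 and 74.1 FPKM in Mock (-1.28, adjusted p = 2.88e-06). Mitf was at 31.4 and 29.3 FPKM in NanoCa and 30.4 and 29.0 FPKM in Mock (0.03, adjusted p = 0.613), and its sign was not stable (-0.02 to 0.22, with adjusted p from 0.0117 with median-of-ratios scaling to 0.973). Transcript levels do not show the activity of these factors.

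Cstb and Cst3, which encode the inhibitors stefin B and cystatin C, were the most abundant of the inhibitors listed. Cstb had 955 and 965 FPKM in NanoCa, against 583 and 561 FPKM in Mock (log2 fold change 0.75, adjusted p = 2.47e-05), and Cst3 had 957 and 1003.2 FPKM in NanoCa, against 606 and 633 FPKM in Mock (0.66, adjusted p = 6.44e-05). The 15 inhibitors found in the table summed to 2121.2 and 2182.5 FPKM in NanoCa and 1422.6 and 1455.6 FPKM in Mock, a ratio of 1.5 beside 1.48 for the cathepsins. Cstdc5 and Stfa1, of the mouse stefin A cluster, are described by their reads alone, since they passed the filter only through Mock. Cstdc5 had 9 and 4 reads in NanoCa, against 218 and 357 in Mock. Stfa1 had 2 and 5 reads in NanoCa, against 133 and 196 in Mock. These genes are near copies of each other, and reads could be split between them. Of the 10 inhibitors tested, 3 were higher, 6 lower and 1 not called, but 5 of the 6 (Cstdc4, Cstdc5, Stfa1, Stfa2 and Stfa2l1) passed the filter only through their Mock level, so the count supports nothing on its own. A further 5 were not tested.

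**Figure D5:**
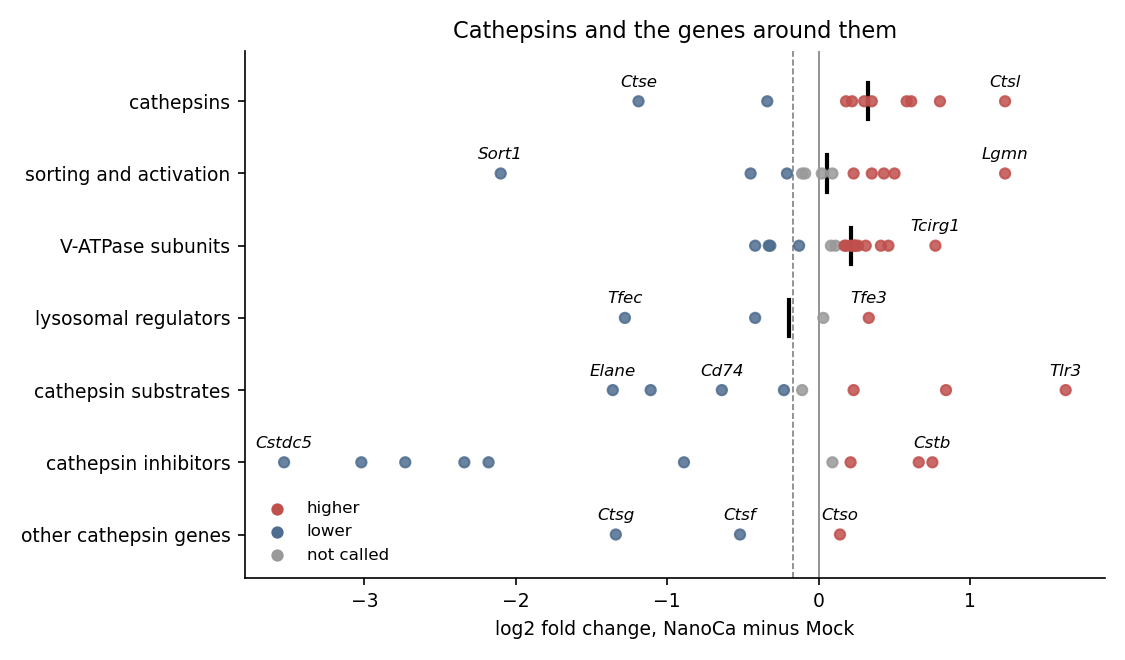
Log2 fold changes (NanoCa minus Mock) of the cathepsins and of 6 lists of related genes, 1 point per gene tested, red for called higher, blue for called lower and grey for not called, with a black bar at the median where no gene passed the filter through 1 group only. The dashed line is the median of all genes (-0.17). Lgmn and Ctsl are at 1.23 and Sort1 at -2.10. Cstdc4, Cstdc5, Stfa1, Stfa2, Stfa2l1, Elane, Prtn3 and Ctsg passed the filter only through Mock. The places and calls of these genes support nothing on their own.

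Among 10 listed proteins that cathepsins process, 8 were tested, and 3 were higher and 4 lower, where 21.7% of all genes tested were higher and 49.7% lower. Of the 4, Elane and Prtn3 passed the filter only through Mock, and 2 were lower with the filter at 5 FPKM or without one, so the count is no result about the list. Tlr3, an endosomal receptor for double-stranded RNA that cathepsins cut, had 21.2 and 20.2 FPKM in NanoCa, against 6.30 and 5.69 FPKM in Mock (log2 fold change 1.63, adjusted p = 4.7e-06). Grn, the precursor of granulins, had 853 and 902 FPKM in NanoCa, against 489 and 492 FPKM in Mock (0.84, adjusted p = 1.98e-05). Cd74, the invariant chain, is named although it falls outside the naming rule and was chosen after its values were seen. It had 777 and 821 FPKM in NanoCa, against 1252.8 and 1240 FPKM in Mock, so it fell (-0.64, adjusted p = 6.8e-05) where its protease Ctss rose. The FPKM ratio of Ctss to Cd74 was 11 and 10.3 in NanoCa and 4.69 and 4.42 in Mock. Elane and Prtn3, granule proteases that Ctsc activates, had 2 to 9 reads per NanoCa library and 26 to 80 per Mock library. Prtn3 was not called without the filter (adjusted p = 0.0923) or without NanoCa replicate 2 (0.0665). The log2 fold change of Prtn3 was -1.11, and -1.56 or -0.66 without Mock replicate 1 or 2. As Prtn3 passed the filter only through Mock, these values support nothing on their own.

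Of the 13 other genes named cathepsin, 9 had no read in any library and Ctsw had 1 read in Mock replicate 1. Ctso, a cysteine protease, had 20.8 and 20.1 FPKM in NanoCa and 18.2 and 18.6 FPKM in Mock (log2 fold change 0.14, adjusted p = 0.0249). Leaving out NanoCa replicate 1 (adjusted p = 0.108), Mock replicate 1 (0.113) or Mock replicate 2 (0.0577) ended its call. Ctsf, another cysteine protease, had 1.56 and 1.79 FPKM in NanoCa, against 2.74 and 2.94 FPKM in Mock (-0.52, adjusted p = 0.00178). Ctsg, a serine protease of neutrophil granules, had 5 and 2 reads in NanoCa, against 32 and 86 in Mock, and passed the filter only through Mock. Its fold change and call therefore support nothing on their own. Its log2 fold change was -1.34 (adjusted p = 0.00965), -1.87 without Mock replicate 1 and -0.82 without Mock replicate 2, and it was not called without the filter (adjusted p = 0.0684).

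Cell type markers also differed between the groups. The counts below stand beside 21.7% called higher in NanoCa and 49.7% called lower over all genes tested. Of 9 macrophage markers 7 were higher and 1 lower in NanoCa, and their sum was 3166.8 and 3314.2 FPKM in NanoCa, against 1697.6 and 1770.7 FPKM in Mock. Of 8 dendritic cell markers 5 were tested, 1 higher and 4 lower, with a sum of 1595.2 and 1685.6 FPKM in NanoCa against 2645.7 and 2616.1 FPKM in Mock. Cd74 is on that list too, and together with H2-Aa and H2-Ab1 it made up most of that sum. H2-Aa averaged 387 FPKM in NanoCa and 718 FPKM in Mock, and H2-Ab1 averaged 367 FPKM in NanoCa and 539 FPKM in Mock. The dendritic cell marker called higher was Ccr7, with a mean of 14.1 FPKM in NanoCa and 8.58 FPKM in Mock (log2 fold change 0.67, adjusted p = 0.00436). The dendritic cell genes Flt3 and Zbtb46 averaged under 1 FPKM in both groups, while Itgax averaged 72.9 FPKM in NanoCa and 117 FPKM in Mock. The sum of 8 neutrophil markers was 219 and 227 FPKM in NanoCa, against 980 and 1140.1 FPKM in Mock, with 5 of 5 tested lower. Mmp8 alone had 168 and 165 FPKM of it in NanoCa and 755 and 730 FPKM in Mock. Camp, Ly6g and Retnlg were too low to be tested. Ngp (mean 0.422 FPKM in NanoCa and 20.0 in Mock) and Ltf (0.0632 and 2.40) passed the filter only through Mock. The neutrophil count therefore supports nothing on its own. The sums of 4 granulocyte precursor markers (Ctsg, Elane and Prtn3 among them) and of 6 mast cell and basophil markers were 0.597 to 2.67 FPKM in NanoCa and 3.76 to 19.7 FPKM in Mock. Of 7 osteoclast markers, which matter for Ctsk, 4 were tested. Of these 2 were higher, 1 was lower and Dcstamp was not called (log2 fold change 0.22, adjusted p = 0.103). Their sum was 397 and 389 FPKM in NanoCa and 412 and 402 FPKM in Mock, and Calcr was at 0. Atp6v0d2, which is also a V-ATPase subunit, made up most of that sum, with 286 and 275 FPKM in NanoCa against 353 and 347 FPKM in Mock. Acp5 rose 2.13-fold and Mmp9 7.63-fold, the latter on few reads (148 and 128 in NanoCa, 25 and 20 in Mock). T and NK cell markers and erythroid markers each summed to under 1 FPKM in every library, with Ncr1 at 0. Fewer cells of a type and less RNA per cell cannot be told apart in such bulk samples. The part of these marker differences in the cathepsin values was not tested.

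By Euclidean distance between mean-centred log2(FPKM + 1) values over the 4 libraries, the profiles most like that of Ctsl belonged to A530064D06Rik (distance 0.0279), Gbe1, the glycogen branching enzyme (0.0298), and Gm5970 (0.0313). Those most like Ctse belonged to Eps8, an actin regulator (0.0286), Chml, a Rab escort protein (0.0337), and G2e3, a ubiquitin ligase (0.0385). These distances rest on 4 libraries and on the added 1, which shrinks changes at low FPKM. With 0.1 added in place of 1, the log2 fold changes were 1.74 (A530064D06Rik), 1.29 (Gbe1) and 1.54 (Gm5970), against 1.24 for Ctsl. Those of Eps8, Chml and G2e3 were -1.21, -1.48 and -1.37, against -1.4 for Ctse.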

How the data were processed

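The authors deposited 1 table of FPKM values, computed by the authors from RNA-seq reads. The build was GRCm39, per the submitters' processing notes, and no source used here names the aligner or counter. Per the labels' protocols, total RNA went into SMARTER libraries. Groups came from sample titles. Reads were recovered from the FPKM steps as whole numbers (tolerance 1e-06) for 23929 of 23929 genes with a value, using GENCODE M21 transcript lengths for 23661 of them. Symbols came from the table. FPKM is not a count, so limma 3.58.1 in R 4.3.3 (lmFit, eBayes with a trend) was run on log2(FPKM + 1), two-sided, on the 2 libraries per group that hold separate values, and tested on simulated data. Promoter sequences are from RefSeq (GRCm38.p6). Named genes were all cathepsins and, per list, the 2 highest and 2 lowest fold changes, or every gene where fewer than 6 were tested. The cathepsins and lists were chosen with earlier results of these data known. Alternatives changed pseudocount, filter, scaling, tool, block and libraries, or added the columns of replicate 3.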

Additional observations from a re-analysis of the deposited data

How the results depend on the processing

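Over 12 alternatives per cathepsin no member changed direction. A change of filter or an added replicate block leaves each fold change as it was, so these alternatives could not turn a direction. Another alternative added the columns of replicate 3, which are scaled means of the others and could hardly turn one. As the 2 NanoCa and 2 Mock values overlapped for no member, a changed pseudocount or a library left out could not turn one either. Median-of-ratios scaling and quantile normalization could have turned a direction, and with them none turned. Calls were lost for Ctsa, Ctsc, Ctsd and Ctsk with quantile normalization, which left 4 cathepsins higher, for Ctsd and Ctss without the filter on low values (6 higher), and for Ctsc without NanoCa replicate 1. Leaving out 1 library in turn gave 7 to 8 cathepsins higher, 2 lower, and a ratio of summed FPKM of 1.45 to 1.5. Median-of-ratios scaling gave 3717 genes higher and 3620 lower, and moved the ratio of summed FPKM to 1.69. Mitf, not called, took the other sign without NanoCa replicate 1 (-0.02) and without Mock replicate 2 (0), with -0.02 to 0.08 over the libraries left out; the cause was not tested. Same-numbered libraries deviated together only weakly across genes (correlation 0.133, with 1 such value for 2 libraries per group), so the numbers were not taken to pair the samples. With the replicate block 2538 genes were higher and 5691 lower, and 8 cathepsins were higher and 2 lower. FPKM scaled to total reads does not separate a change of the cathepsins from one of the rest of the RNA. Ctse rests on 143 to 536 reads per library, the others on 4719 or more.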
